A study of Homo sapiens with 4 samples.

Results

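The Notch pathway was described here through 10 genes, chosen by name from the deposited gene table and compared between TTC28-KO and WT cells. They were chosen with earlier results of these data known. They are the receptors NOTCH1, NOTCH2 and NOTCH3, the ligands JAG1 and JAG2, the receptor-modifying enzyme LFNG, the DNA-binding factor RBPJ and the target genes HES1, HES4 and HEY1. All 10 were found among the 58735 genes of the table, and 9 of them were among the 13079 genes with enough signal to test. LFNG did not reach the minimum for testing, 1 FPKM (fragments per kilobase of gene, on the authors' scaling between libraries) in at least 2 libraries.

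The cells were H1299, an established line of human non-small cell lung cancer. Total RNA was sequenced from 2 libraries of TTC28-KO cells, in which the gene was targeted with CRISPR/Cas9, and from 2 libraries of WT cells. TTC28 encodes a tetratricopeptide repeat protein that has been linked to cell division. Both groups were grown in RPMI1640 with fetal bovine serum and were labelled untreated, and the labels do not say whether the KO cells were 1 clone or a pool. Nor do they say that the libraries of a group came from separate cultures, so every p-value below measures only the spread between these libraries.

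Notch signalling passes between touching cells. A ligand of the Jagged or Delta-like family on one cell binds a receptor on its neighbour, the receptor is cut, and its inner part enters the nucleus, where it joins RBPJ on DNA and switches on genes of the HES and HEY families, which encode repressors of transcription. Fringe enzymes such as LFNG add a sugar to the receptor and change which ligands it answers to, and the activity of the pathway in lung cancer cells has been described as depending on the receptor and on the tumour type.

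RBPJ recognises DNA through the core letters TGGGAA, and the promoters of HES1 and HES4 are shown because both genes fell in KO cells (below) and both carry these letters close to their start. The windows run from 250 bases before to 50 bases after the start of the gene, 5′ to 3′ on the strand of the gene, with TGGGAA in capitals, and come from RefSeq on GRCh38.p14. The HES1 window is chr3:194135898-194136197 on the plus strand, and the HES4 window chr1:1000048-1000347 on the minus strand.
HES1: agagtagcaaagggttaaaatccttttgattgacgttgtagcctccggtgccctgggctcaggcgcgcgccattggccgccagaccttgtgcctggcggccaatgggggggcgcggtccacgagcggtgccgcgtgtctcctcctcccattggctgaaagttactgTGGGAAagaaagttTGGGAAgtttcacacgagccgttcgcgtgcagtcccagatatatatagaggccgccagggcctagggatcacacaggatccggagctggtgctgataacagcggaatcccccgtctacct
HES4: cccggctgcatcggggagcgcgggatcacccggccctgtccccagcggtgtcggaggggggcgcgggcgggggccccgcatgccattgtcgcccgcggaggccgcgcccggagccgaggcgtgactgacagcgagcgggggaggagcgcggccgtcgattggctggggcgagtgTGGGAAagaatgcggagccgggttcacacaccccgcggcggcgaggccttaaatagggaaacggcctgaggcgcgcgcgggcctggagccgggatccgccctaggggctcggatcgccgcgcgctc
In HES1 the letters stood at 84 and 70 bases before the RefSeq start, and in HES4 at 76 bases before it. The deposited coordinates put the start of HES4 at 1000172, upstream of the RefSeq start, so this distance depends on the annotation. The longer form GTGGGAA, which contains the shorter one, began 1 base further upstream at the first HES1 match and at the HES4 match. Searched on both strands (TGGGAA or TTCCCA), the letters were in 24.0% of all 35116 RefSeq windows of this length, 3.80% held them at least 2 times, and GTGGGAA or TTCCCAC was in 6.25%. RefSeq gave 14 windows for 9 of the 10 genes, and 5 windows, of HES1, HES4, RBPJ and LFNG, held TGGGAA on either strand. The gene without a window was HEY1, the target that did not pass the test (below), so its promoter was not searched. A window of RBPJ, which rose in KO cells (below), held the letters 2 times, both in the longer form. The windows of NOTCH1, NOTCH2, NOTCH3, JAG1 and JAG2 did not hold these letters, which says nothing about binding of RBPJ to these genes.

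TTC28 itself (ENSG00000100154, chromosome 22, 27978014 to 28679865, minus strand, hg38) was at 2.96 and 2.99 FPKM in KO libraries, against 4.88 and 5.44 FPKM in WT libraries. Its log2 fold change was -0.79 ± 0.0764 (SE; adjusted p = 2.78e-06, edgeR quasi-likelihood test), so its transcript was lower in both libraries labelled KO but was still present. The libraries held 25120500 to 28885443 counts. Mitochondrial genes took 8.61% and 10.2% of the counts in KO libraries, against 6.07% and 5.87% in WT libraries, and the part of this difference in the results below was not tested. The epithelial keratins KRT8 and KRT18 and the mesenchymal markers VIM, CDH2 and ZEB1 were all expressed, while the other 3 of the 5 epithelial markers (EPCAM, CDH1, KRT19) and the 3 lung lineage markers (NKX2-1, SFTPC, SCGB1A1) were under 1 FPKM in every library. The epithelial markers summed to 212 and 198 FPKM in KO libraries, against 168 and 162 FPKM in WT libraries, and the mesenchymal markers to 380 and 369 FPKM in KO libraries, against 329 and 313 FPKM in WT libraries. All 4 immune, 4 endothelial and 4 fibroblast markers were under 1 FPKM, and the immune markers summed to at most 0.0688 FPKM in any library. The endothelial markers summed to 0.319 and 0.318 FPKM in KO libraries, against 0.107 and 0.115 FPKM in WT libraries, and the fibroblast markers to 0.592 and 0.615 FPKM in KO libraries, against 0.185 and 0.294 FPKM in WT libraries. Neither set moved together. KDR had 38 and 31 counts in KO libraries, against 1 and 6 in WT libraries, while the libraries of PECAM1 overlapped. COL1A1 and PDGFRA were higher in both KO libraries, DCN was lower on few counts, and COL1A2 overlapped. The part of these markers in the results below was not tested.

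In KO cells 2 of the 3 Notch receptors were higher, and both Jagged ligands and the targets HES1 and HES4 were lower. NOTCH3 was 4.46-fold higher, the ligand JAG1 was 2.40-fold lower, and the targets HES1 and HES4 were 2.54-fold and 1.91-fold lower. Of the 9 tested genes, 3 rose (NOTCH1, NOTCH3, RBPJ), 4 fell (JAG1, JAG2, HES1, HES4) and 2 did not pass the test (NOTCH2, HEY1). The calls of NOTCH1, RBPJ and JAG2 were lost in some alternative settings (below). The background was high: 50.3% of all tested genes passed the same test, 25.1% higher and 25.2% lower in KO cells, so passing it set these genes little apart. The median log2 fold change of the 9 was 0.01, close to the median of all tested genes. Changes of at least 2-fold were rarer, at 5.21% of all tested genes (2.95% higher, 2.26% lower), and 3 of the 9 genes reached this size, NOTCH3, JAG1 and HES1. The genes were chosen with earlier results of these data known, so these shares do not test whether they stand apart. On scaled counts the KO and WT libraries did not overlap for 7 of the 9 genes, as for 75.5% of all tested genes.

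**Figure D1:**
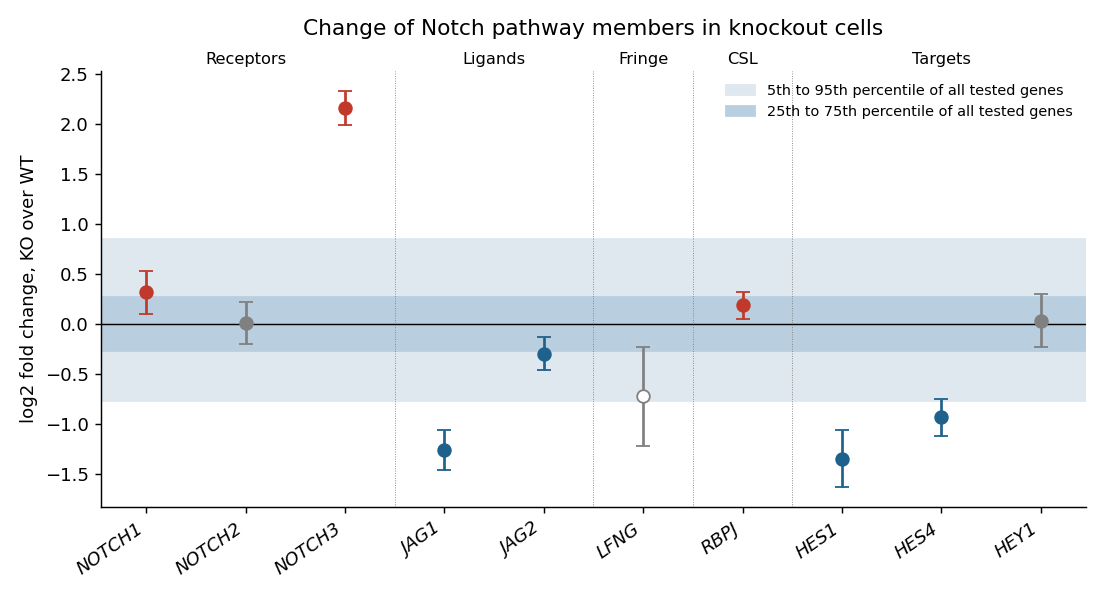
Log2 fold change, KO over WT, of each gene by role, with 95% confidence intervals (bars) from edgeR's quasi-likelihood fit over 4 libraries. Red points rose, blue points fell and grey points did not pass the test; the open point of LFNG is the log2 ratio of scaled counts with an exact binomial interval, since LFNG was under the minimum for testing. NOTCH3 lies above, and JAG1, HES1 and HES4 below, the band that holds the middle 90 percent of all tested genes.

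Among the receptors, NOTCH3 (ENSG00000074181, chromosome 19, 15159038 to 15200981, minus strand) was at 7.58 and 7.43 FPKM in KO libraries, against 1.65 and 1.72 FPKM in WT libraries. Both KO libraries lay far above both WT libraries, and replicates of a group were nearly equal. NOTCH3 encodes a receptor best known from the smooth muscle of small arteries, and it is also expressed in a share of lung cancers. Behind these values stood 1984 and 1704 counts in KO libraries, against 407 and 439 in WT libraries. The log2 fold change was 2.16 ± 0.0795 (SE, 95% confidence interval 1.99 to 2.33; adjusted p = 8.78e-10, edgeR), and 99.5% of all tested genes had a lower one. Since the samples are bulk RNA, more cells expressing NOTCH3 and more NOTCH3 RNA per cell cannot be told apart, and the same holds for fewer cells and less RNA per cell for every gene below. Of the 4 markers of mural cells, in which NOTCH3 is typically expressed, only ACTA2 reached 1 FPKM, and together they summed to 2.09 and 1.91 FPKM in KO libraries, against 2.19 and 1.89 FPKM in WT libraries. They did not move together: CSPG4 had 48 and 25 counts in KO libraries, against 4 and 9 in WT libraries, and RGS5 had 85 and 74 counts in KO libraries, against 125 and 105 in WT libraries. Their part in the NOTCH3 result was not tested.

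NOTCH1 (ENSG00000148400, chromosome 9, 136494433 to 136545786, minus strand), the receptor with the best known role in T-cell leukaemia, was at 3.74 and 4.10 FPKM in KO libraries, against 2.82 and 3.48 FPKM in WT libraries. Both KO libraries were above both WT libraries, but the WT libraries differed from each other by more than the gap between the nearest KO and WT libraries. The log2 fold change was 0.32 ± 0.10 (SE, 95% confidence interval 0.10 to 0.53; adjusted p = 0.0174, edgeR), a 1.25-fold rise. This call was lost without KO replicate 2 (log2 fold change 0.25, adjusted p = 0.0675) and without WT replicate 1 (0.18, adjusted p = 0.239), and in limma on log2(FPKM + 1) the adjusted p was 0.0959. In the authors' deposited table the adjusted p of NOTCH1 was 0.0540, with a log2 fold change of 0.30.

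NOTCH2 (ENSG00000134250, chromosome 1, 119911553 to 120069626, minus strand), a receptor with broad expression across tissues, was at 6.37 and 6.73 FPKM in KO libraries, against 5.62 and 7.41 FPKM in WT libraries. The KO values lay between the WT values, so the groups overlapped. NOTCH2 had a log2 fold change of 0.01 ± 0.0976 (SE, 95% confidence interval -0.20 to 0.22; adjusted p = 0.939, edgeR), and the interval leaves room for changes of up to about this size in either direction. NOTCH2NLA, a shorter human copy of NOTCH2 whose reads could be shared with it, had 10 and 19 counts in KO libraries, against 3 and 11 in WT libraries, while NOTCH2 had 2476 or more in every library. How reads matching both genes were counted is not known, so these counts do not show how many were shared.

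The make-up of the receptor transcripts differed accordingly. NOTCH3 made up 42.8% and 40.7% of the summed FPKM of the 3 receptors in KO libraries, against 16.4% and 13.6% in WT libraries. NOTCH2 made up 36% and 36.9% in KO libraries, against 55.7% and 58.8% in WT libraries, and NOTCH1 21.2% and 22.4% in KO libraries, against 27.9% and 27.6% in WT libraries. NOTCH3 was therefore the most abundant of the 3 receptors in both KO libraries and the least abundant in both WT libraries, on a scale that takes gene length into account. The summed receptor level was 18.0 ± 0.399 FPKM in KO libraries and 11.3 ± 1.77 FPKM in WT libraries (SD, n = 2 each), a ratio of 1.58. With 2 libraries a group, an exact permutation test of a single value cannot give a two-sided p under 0.333, which is what each of these sums and shares gave.

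Both ligands fell. JAG1 (ENSG00000101384, chromosome 20, 10637684 to 10673999, minus strand), a ligand of the Jagged family needed in the development of the liver bile ducts and the heart, was at 1.24 FPKM in both KO libraries, against 2.95 and 3.02 FPKM in WT libraries. The groups lay well apart and the replicates of each were almost equal. The counts were 322 and 281 in KO libraries, against 718 and 764 in WT libraries. The log2 fold change was -1.26 ± 0.0934 (SE, 95% confidence interval -1.46 to -1.06; adjusted p = 2.97e-07, edgeR), and 1.48% of all tested genes had a lower one.

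JAG2 (ENSG00000184916, chromosome 14, 105140981 to 105168824, minus strand), the other Jagged ligand, was at 5.90 and 6.04 FPKM in KO libraries, against 7.31 and 7.38 FPKM in WT libraries. Both KO libraries were below both WT libraries, by a smaller step than for JAG1. JAG2 had a log2 fold change of -0.30 ± 0.0747 (SE, 95% confidence interval -0.46 to -0.13; adjusted p = 0.00490, edgeR), a 1.23-fold fall. With the median log2 fold change of the 25 tested genes on each side of JAG2 removed, its value was -0.19 and no longer passed (adjusted p = 0.0552). JAG1 took 17.4% and 17% of the summed FPKM of the 2 Jagged ligands in KO libraries, against 28.7% and 29% in WT libraries, so JAG2 was the more abundant Jagged ligand in every library.

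LFNG (ENSG00000106003, chromosome 7, 2512529 to 2529177, plus strand), the Fringe enzyme that favours signalling through Delta-like ligands, was at 0.315 and 0.323 FPKM in KO libraries, against 0.614 and 0.440 FPKM in WT libraries. Both KO libraries were below both WT libraries, on 30 and 27 counts in KO libraries, against 55 and 41 in WT libraries. It was under the minimum for testing; the ratio of its scaled counts, KO over WT, was 0.608 (95% exact Clopper-Pearson interval 0.430 to 0.852, counting error only). Without a minimum its adjusted p was 0.0471 in edgeR, where 25.7% of 30992 genes passed, and 0.281 in the authors' deposited table.

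RBPJ (ENSG00000168214, chromosome 4, 26163455 to 26435131, plus strand) was at 9.60 and 10.0 FPKM in KO libraries, against 8.63 and 8.62 FPKM in WT libraries. The KO libraries were above the WT libraries by a small step. The log2 fold change was 0.19 ± 0.0629 (SE, 95% confidence interval 0.05 to 0.32; adjusted p = 0.0246, edgeR), a 1.14-fold rise. The call depended on the method: the adjusted p was 0.0568 in DESeq2, 0.119 without WT replicate 1, 0.145 without WT replicate 2 and 0.0798 without KO replicate 2, and in the authors' deposited table it was 0.108.

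**Figure D2:**
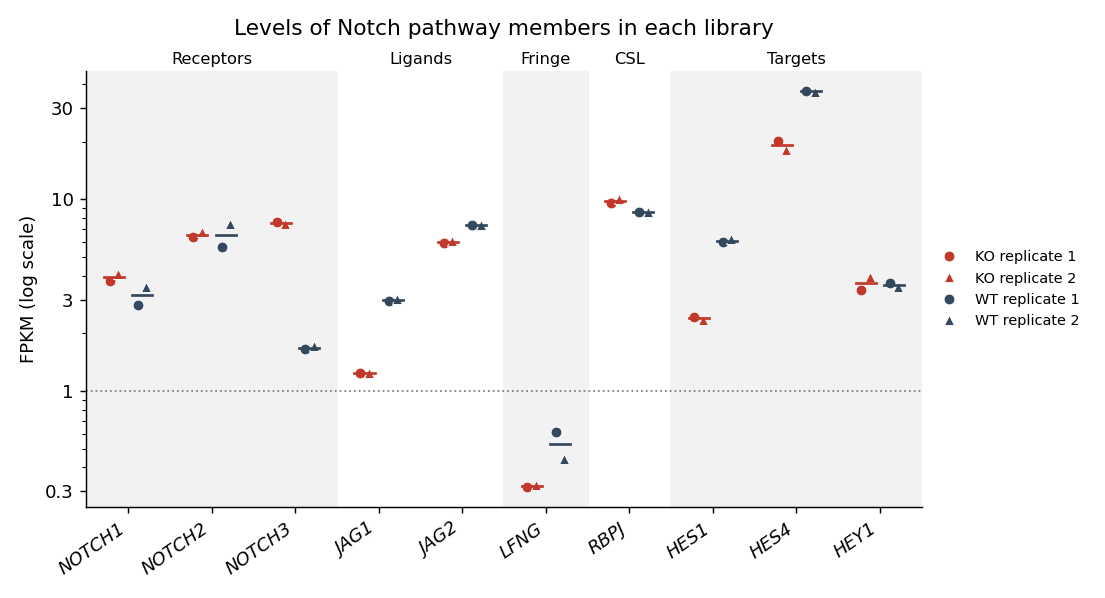
FPKM of each gene in each library on a log scale, with KO libraries (red) left of WT libraries (dark blue) and a bar at the mean of each group; circles are replicate 1, triangles replicate 2, and the dotted line marks the minimum of 1 FPKM used for testing. NOTCH3 is far higher in KO libraries, JAG1, HES1 and HES4 are lower, and the libraries of NOTCH2 and HEY1 overlap.

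HES1 and HES4 fell and HEY1 did not pass the test. HES1 (ENSG00000114315, chromosome 3, 194136145 to 194138732, plus strand), a repressor that holds back differentiation in many tissues, was at 2.42 and 2.36 FPKM in KO libraries, against 5.96 and 6.23 FPKM in WT libraries. The WT libraries were both more than 2-fold above the KO libraries, with little spread in either group. The log2 fold change was -1.35 ± 0.130 (SE, 95% confidence interval -1.63 to -1.06; adjusted p = 2.87e-06, edgeR), on 139 and 119 counts in KO libraries, against 322 and 350 in WT libraries. Only 1.22% of all tested genes had a lower value.

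HES4 (ENSG00000188290, chromosome 1, 998962 to 1000172, minus strand), a related repressor present in humans and absent from mice, was at 20.1 and 18.1 FPKM in KO libraries, against 36.7 and 36.4 FPKM in WT libraries. It was the most abundant of the 10 genes in every library, and its KO and WT libraries lay apart by far more than the spread within a group. HES4 had a log2 fold change of -0.93 ± 0.0852 (SE, 95% confidence interval -1.12 to -0.75; adjusted p = 1.78e-06, edgeR), and 3.13% of all tested genes had a lower one.

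HEY1 (ENSG00000164683, chromosome 8, 79764010 to 79767863, minus strand), a repressor of the HEY family described in heart and vessel development, was at 3.36 and 3.95 FPKM in KO libraries, against 3.68 and 3.48 FPKM in WT libraries. The groups overlapped. HEY1 had a log2 fold change of 0.03 ± 0.122 (SE, 95% confidence interval -0.23 to 0.30; adjusted p = 0.850, edgeR), an interval that does not reach the size of the fall of HES1 or HES4. HEY1 stood at 1.39 and 1.67 times the FPKM of HES1 in KO libraries, against 0.618 and 0.558 times in WT libraries, so the order of these 2 targets within a library was reversed.

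The receptors, ligands and targets were then set side by side as summed FPKM within each library. The 3 receptors summed to 17.7 and 18.3 FPKM in KO libraries, against 10.1 and 12.6 FPKM in WT libraries. The 2 Jagged ligands summed to 7.14 and 7.28 FPKM in KO libraries, against 10.3 and 10.4 FPKM in WT libraries, a ratio of 0.698. The 3 targets summed to 25.8 and 24.4 FPKM in KO libraries, against 46.3 and 46.1 FPKM in WT libraries, a ratio of 0.544. By these sums, receptor transcripts were thus higher, and ligand and target transcripts lower, in each KO library than in each WT library. Not every gene took part: NOTCH2 and HEY1 overlapped between the groups. HES4 alone made up 74.1% to 79.2% of the target sum. Other described targets (below) are not in this sum, and of 8 tested 4 rose and 4 fell. Among them HES7, which rose, was at 25.8 and 26.8 FPKM in KO libraries, against 19.7 and 18.7 FPKM in WT libraries.

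The receptor sum was then divided by the ligand and by the target sum of the same library. Receptor over Jagged ligand stood at 2.48 and 2.51 in KO libraries, against 0.984 and 1.21 in WT libraries, a ratio of means of 2.27. Receptor over target was 0.684 and 0.748 in KO libraries, against 0.218 and 0.274 in WT libraries, a ratio of 2.91. NOTCH3 over JAG1, the receptor and the ligand with the larger changes, was 6.10 and 6.0 in KO libraries, against 0.561 and 0.569 in WT libraries. These ratios, taken within a library, do not depend on how libraries are scaled. The sums do: as TPM, which gives each library the same total, the ratios of KO over WT were 1.41 for receptors, 0.623 for ligands and 0.486 for targets.

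**Figure D3:**
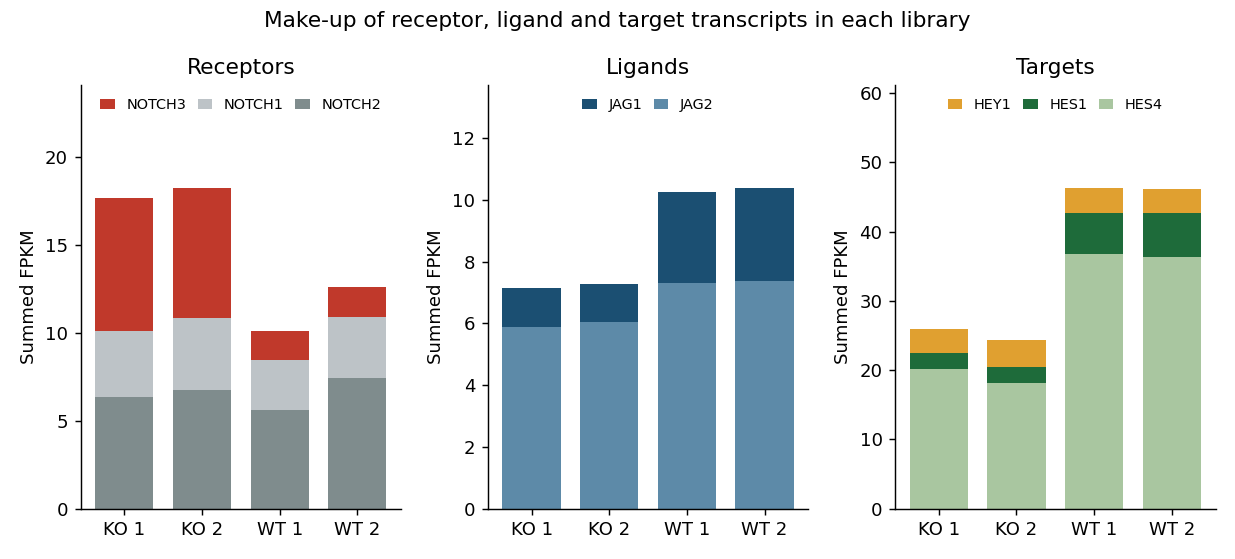
Summed FPKM of the 3 receptors, the 2 Jagged ligands and the 3 targets in each library, KO libraries left of WT libraries, each bar divided by gene. The receptor bars are taller in KO libraries through NOTCH3, the ligand bars shorter through both JAG1 and JAG2, and the target bars shorter mainly through HES4.

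The order of the 10 genes by mean FPKM differed between the groups. In KO libraries it was HES4, RBPJ, NOTCH3, NOTCH2, JAG2, NOTCH1, HEY1, HES1, JAG1 and LFNG, and of neighbours in this order NOTCH1 and HEY1 overlapped. In WT libraries it was HES4, RBPJ, JAG2, NOTCH2, HES1, HEY1, NOTCH1, JAG1, NOTCH3 and LFNG, in which JAG2 overlapped NOTCH2, NOTCH2 overlapped HES1, HEY1 overlapped NOTCH1 and NOTCH1 overlapped JAG1. NOTCH3 had rank 3 in KO libraries, at 7.5 ± 0.107 FPKM, and rank 9 in WT libraries, at 1.68 ± 0.0439 FPKM (SD, n = 2 each). HES1 had rank 8 in KO libraries, at 2.39 ± 0.0394 FPKM, and rank 5 in WT libraries, at 6.10 ± 0.192 FPKM.

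**Figure D4:**
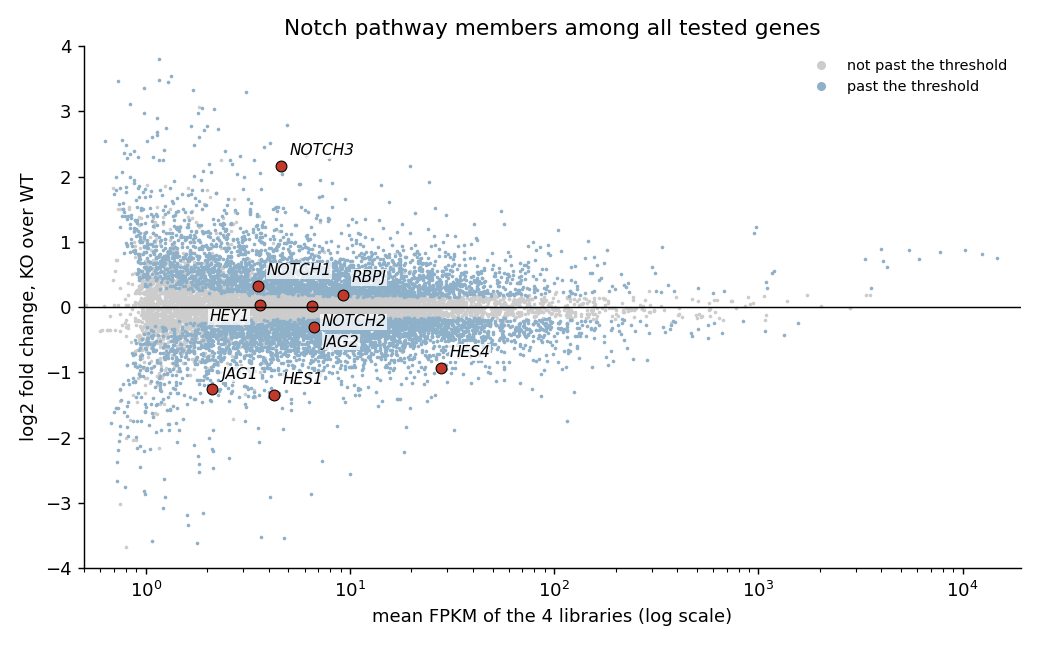
Log2 fold change, KO over WT, against mean FPKM of the 4 libraries (log axis) for the 13079 tested genes, with the 9 tested Notch genes in red; 26 genes lie outside the axes. NOTCH3, JAG1, HES1 and HES4 lie toward the edge of the cloud at their level, and the other 5 lie closer to 0.

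Other protein-coding genes with a pattern over the 4 libraries most like NOTCH3 and HES1 were found by the distance between centred log2 values among 10795 genes. Nearest to NOTCH3 were LVRN, which encodes the aminopeptidase laeverin, at a distance of 0.156, RAET1E, a ligand of the NKG2D receptor of natural killer cells, at 0.157, and MISP, a protein of the mitotic spindle and cell cortex, at 0.199. LVRN was at 12.5 and 13.6 FPKM in KO libraries, against 2.65 and 2.78 FPKM in WT libraries. Nearest to HES1 were BHLHE41, a repressor of the circadian clock, at a distance of 0.0164, CLDN1, a tight junction protein, at 0.0243, and CHGB, a secretory granule protein, at 0.0433. BHLHE41 was at 2.03 and 2.0 FPKM in KO libraries, against 5.07 and 5.25 FPKM in WT libraries. With only 4 libraries in 2 groups, likeness says little beyond a similar fold change.

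Beyond the 10 genes, 84 other genes of the pathway in 7 lists were looked up, and 61 of them could be tested. Of these, 23 rose, 15 fell and 23 did not pass, with a median log2 fold change of 0.10. Together 62.3% passed, against the 50.3% of all tested genes (25.1% higher, 25.2% lower). Counts for each list below are to be read against these shares. The lists were chosen with earlier results of these data known, so these shares do not test whether the lists stand apart. On a TPM scale 15 rose, and of all called genes 25.5% were higher on that scale, against 49.9% here, with the median of all tested genes at -0.16.

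Of the other receptors and ligands, 3 of 7 could be tested. The atypical ligand DLK2 was at 4.17 and 4.01 FPKM in KO libraries, against 7.22 and 7.78 FPKM in WT libraries, a log2 fold change of -0.87 ± 0.110 (SE; adjusted p = 2.76e-05, edgeR). DLL3, a ligand that acts inside the cell as an inhibitor, was at 3.93 and 2.96 FPKM in KO libraries, against 4.96 and 5.17 FPKM in WT libraries (-0.55, adjusted p = 0.00448). DLL1, an activating ligand, was at 1.69 and 1.56 FPKM in KO libraries, against 1.15 and 1.06 FPKM in WT libraries. Its log2 fold change of 0.56 passed (adjusted p = 0.0148, edgeR) but not in DESeq2 (0.0716) or without KO replicate 1 (0.0606), WT replicate 1 (0.0502) or WT replicate 2 (0.105). With DLL1, DLL3 and DLL4 added to the Jagged ligands, the ligand sum was 12.9 and 11.9 FPKM in KO libraries, against 16.4 and 16.8 FPKM in WT libraries.

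In the list of receptor maturation and glycosylation, 6 of 10 tested genes rose and none fell, with a median of 0.30, and the other 4 (POFUT1, POGLUT1, RFNG, XXYLT1) did not pass. The share called was 60.0%, against 50.3% of all tested genes. FURIN, the protease that makes the first cut of the receptor in the Golgi, was at 26.2 and 24.5 FPKM in KO libraries, against 18.2 and 19.1 FPKM in WT libraries (log2 fold change 0.45, adjusted p = 7.20e-05, edgeR). The xylosyltransferases GXYLT1 (0.48) and GXYLT2 (0.73) and the glucosyltransferase POGLUT2 (0.66), listed as KDELC1 in the deposited table, also rose. On a TPM scale 2 genes of this list fell.

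The enzymes that release the receptor moved both ways, with 2 of 8 higher, 2 lower and a median of 0.07. NCSTN, the nicastrin subunit of gamma-secretase, was at 33.4 and 34.9 FPKM in KO libraries, against 23.7 and 24.5 FPKM in WT libraries (log2 fold change 0.51, adjusted p = 2.07e-05, edgeR), and the subunit gene APH1B also rose (0.52). ADAM17, a protease that can make the cut at the cell surface, was at 4.43 and 4.44 FPKM in KO libraries, against 7.31 and 7.34 FPKM in WT libraries (-0.72, adjusted p = 1.85e-06, edgeR). With the median of its 25 tested neighbours on each side removed, the value of ADAM17 was -0.01 (adjusted p = 0.891). PSENEN, another subunit, was at 11 and 5.81 FPKM in KO libraries, against 13.0 and 12 FPKM in WT libraries (-0.55, adjusted p = 0.0299, edgeR). PSENEN lost its call in 7 of 14 alternatives, with an adjusted p of 0.308 in DESeq2 and 0.129 in limma on log2(FPKM + 1). Without KO replicate 2 it was at -0.18. In the authors' deposited table its adjusted p was 0.365.

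Of 11 tested genes of ligand activation and receptor turnover, 4 fell, none rose and the median was 0.05. That is 36.4% called, against 50.3% of all tested genes. NEURL1, a ubiquitin ligase of the Neuralized family, which in flies drives the uptake of Notch ligands, was at 0.651 and 0.495 FPKM in KO libraries, against 2.93 and 3.20 FPKM in WT libraries. Its log2 fold change of -2.41 ± 0.153 (SE; adjusted p = 7.86e-08, edgeR) was the lowest of the 61 tested genes. The kinase gene AAK1, which acts in endocytosis, also fell (-0.60, adjusted p = 9.53e-05), as did the ubiquitin ligases MIB2 (-0.22) and ITCH (-0.17), which lost their calls in 6 and 5 of 14 alternatives, MIB2 without KO replicate 2 or either WT replicate and ITCH without KO replicate 1 or WT replicate 2. MIB1, the main ligase of Notch ligands in mammals, was at 12.5 and 13.3 FPKM in KO libraries and 11.9 and 13.1 FPKM in WT libraries and did not pass.

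Nuclear partners of RBPJ held 10 that rose and 2 that fell among 20 tested, with a median of 0.24. In this list 60.0% were called, against 50.3% of all tested genes. The coactivator MAML2 was at 2.33 and 2.57 FPKM in KO libraries, against 1.35 and 1.09 FPKM in WT libraries, a log2 fold change of 1.00 ± 0.127 (SE; adjusted p = 2.76e-05, edgeR). The other 2 Mastermind genes, MAML1 (0.25) and MAML3 (0.35), rose too, but lost their calls in 4 and 9 of 14 alternatives, both of them without WT replicate 1 (adjusted p = 0.169 for MAML1 and 0.244 for MAML3) and MAML3 also without either KO replicate. Corepressors were also among those that rose, with TLE1 at 0.58, HDAC1 at 0.41 and CIR1 at 0.50, although CIR1 was at 0.24 with the median of its neighbours removed (adjusted p = 0.0732). The acetyltransferase gene CREBBP (-0.26) and the deacetylase gene HDAC2 (-0.20) fell, but neither passed in limma on log2(FPKM + 1) (adjusted p = 0.0586 for CREBBP and 0.0531 for HDAC2). Without WT replicate 2 CREBBP was at -0.17 (adjusted p = 0.143), and with the median of its neighbours removed at -0.13 (adjusted p = 0.153). HDAC2 was at -0.17 without KO replicate 1 (adjusted p = 0.0558) and at -0.14 without WT replicate 1 (adjusted p = 0.204). On a TPM scale 6 of the list rose in place of 10.

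Other described targets were evenly divided, with 4 of 8 higher, 4 lower and a median of 0.04. All 8 were thus called, against 50.3% of all tested genes. MYC, a driver of growth, was at 44.4 and 47.5 FPKM in KO libraries, against 108 and 112 FPKM in WT libraries (log2 fold change -1.26, adjusted p = 1.10e-08, edgeR). SOX9, a factor of progenitor cells, was at 11.7 and 13.1 FPKM in KO libraries, against 26.8 and 28.8 FPKM in WT libraries (-1.16, adjusted p = 7.24e-08, edgeR). The cyclin gene CCND1 (-0.38) and NRARP, a feedback inhibitor of Notch (-0.46), fell as well, but NRARP lost its call in DESeq2 (adjusted p = 0.122) and without each of the 4 libraries in turn (adjusted p up to 0.161). HES7, the repressor of the segmentation clock, was at 25.8 and 26.8 FPKM in KO libraries, against 19.7 and 18.7 FPKM in WT libraries (0.46, adjusted p = 2.86e-04, edgeR), and HEYL (0.47), CCND3 (0.51) and CDKN1A (0.52) also rose. HEYL lost its call in the 3 limma fits, without KO replicate 1 (0.36, adjusted p = 0.0994) and without WT replicate 2 (0.26, adjusted p = 0.243). Only HES6 of 8 genes listed as proneural factors and their partners could be tested, and it was at 4.76 and 3.74 FPKM in KO libraries, against 5.96 and 6.31 FPKM in WT libraries (-0.52, adjusted p = 0.00506, edgeR). Most of these targets are also controlled by other pathways.

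**Figure D5:**
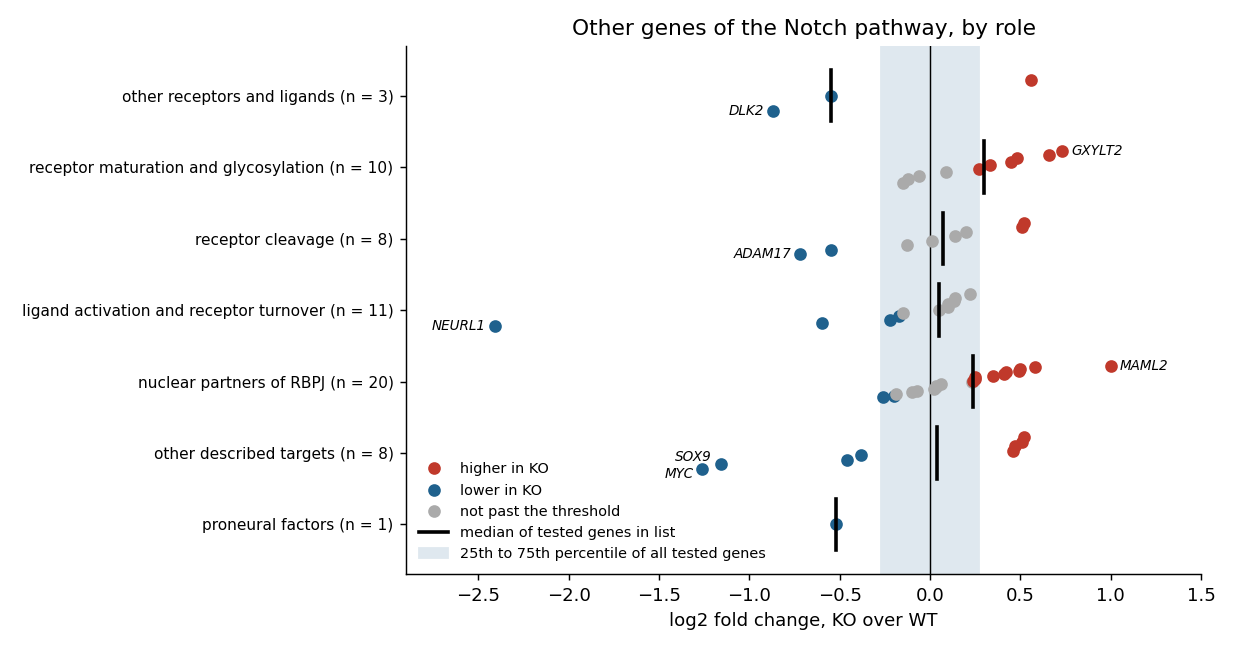
Log2 fold change, KO over WT, of the 61 tested genes in 7 lists of other pathway genes, ordered by role, with a black bar at the median of each list and a band over the middle 50 percent of all tested genes; red points rose, blue points fell and grey points did not pass. Receptor maturation and nuclear partners have medians to the right of 0, while NEURL1, MYC and SOX9 lie farthest to the left.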

How the data were processed

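Illumina TruSeq libraries of total RNA, 2 from KO and 2 from WT cells per the labels, were aligned by the authors to hg38 using HISAT2 2.0.5 (named in the submitters' processing notes). The counter of reads, its strand setting and the annotation (not given in the sources used here) could change the counts of genes that overlap. Per the file headers, the authors deposited a raw count and an FPKM value for each gene and library. They also deposited each group's mean signal of scaled counts, which was not used, and their own log2 fold change, p-value and adjusted p-value, for which no tool is named.

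The 10 genes and the lists of other pathway genes were chosen with earlier results of these data known. Members were matched by symbol, and their coordinates are those of the deposited table, identical to GENCODE 29 for all 10. A gene was tested if 2 or more libraries reached 1 FPKM. The test was edgeR 4.0.16 (R 4.3.3) on the counts: quasi-likelihood, TMM factors, no covariates, two-sided, with Benjamini-Hochberg adjustment over the 13079 tested genes and a threshold of 0.05. The common biological coefficient of variation was 0.0566, and the median standard error of a log2 fold change was 0.0886. The steps were run on simulated data with far fewer changed genes and the same spread for every gene. That run therefore does not show how the test behaves on these data. Intervals on count ratios cover counting error only. The text names the 10 members, TTC28 and, from each other list, every called gene with a change of at least 2-fold and up to 4 more with the smallest p, except 1 gene that is not reported here. POFUT1, POGLUT1, RFNG, XXYLT1, MIB1, MAML1, MAML3, CREBBP, HDAC2, NRARP, HEYL, NOTCH2NLA and the genes under the minimum were named after their values were seen. Likeness to NOTCH3 and HES1, the members with the highest and lowest log2 fold change, was the Euclidean distance of log2 TMM-scaled counts centred on each gene's mean. Alternatives were other filters and scalings, DESeq2 1.42.0, limma 3.58.1 on log2 FPKM or TPM, a replicate block, removal of the median of 25 neighbours on each side, and leaving out each library. Leaving out libraries for the summed levels was chosen after seeing the data.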

Additional observations from a re-analysis of the deposited data

How the results depend on the processing

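NOTCH3, JAG1, HES1 and HES4 kept their direction and passed the test in all 14 alternatives, with log2 fold changes of 1.66 to 2.18 for NOTCH3, -1.33 to -0.83 for JAG1, -1.57 to -1.07 for HES1 and -1.09 to -0.87 for HES4. The smaller changes depended on the setting, and the causes were not tested. NOTCH1 did not pass in limma on log2(FPKM + 1) (0.25), log2(FPKM + 0.1) (0.31) or log2(TPM + 1) (0.14), and leaving out 1 library gave 0.18 to 0.47. RBPJ did not pass with no filter (0.17), library totals only (0.12), DESeq2 (0.19), or limma on log2(FPKM + 1) (0.17), log2(FPKM + 0.1) (0.18) and log2(TPM + 1) (0.02), and leaving out 1 library gave 0.15 to 0.22. JAG2 lost its call once the median of its neighbours was removed (-0.19). NOTCH2, which never passed, changed sign with no filter (-0.00298), library totals only (-0.06) and TPM (-0.14), and leaving out 1 library gave -0.17 to 0.21. HEY1, which never passed, changed sign with library totals only (-0.03), TPM (-0.13) and removal of the neighbours' median (-0.15), and leaving out 1 library gave -0.09 to 0.15. In each of the 3 limma fits 1 of the members rose, and leaving out 1 library gave 1 to 3. On the TPM scale 1582 of all genes and 15 of the 61 other pathway genes rose, and the KO over WT ratios of the ligand and target sums were 0.623 and 0.486. Over all tested genes 4854 to 6456 were called with 1 library left out.

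Replicate numbers did not pair the libraries: the replicate differences of KO and WT libraries correlated at -0.0233 over 13079 genes. With a replicate block 3 members were higher and 4 lower, as without it. All genes then had 3515 higher and 3593 lower, against 3281 and 3300 without it, and the other pathway genes 25 higher and 17 lower, against 23 and 15. LFNG had at most 55 counts in a library, so its ratio has a wide counting interval.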

Other observations

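Several pathway genes under the minimum of 1 FPKM still differed in their counts. The receptor gene NOTCH4 had 33 counts in each KO library, against 105 and 107 in WT libraries, a ratio of scaled counts of 0.319 (95% exact Clopper-Pearson interval 0.238 to 0.422, counting error only). Without a minimum it passed in edgeR's quasi-likelihood test (log2 fold change -1.66, adjusted p = 6.60e-11), where 25.7% of 30992 genes passed. In the authors' deposited table its adjusted p was 8.12e-05. NOTCH4 thus differed in the direction opposite to NOTCH3, at a level so low that it moved the summed receptor level little, to 17.8 and 18.4 FPKM in KO libraries and 10.5 and 13.0 FPKM in WT libraries. HEY2, a target and relative of HEY1, had 10 and 9 counts in KO libraries, against 58 and 40 in WT libraries, a ratio of 0.198 (0.115 to 0.327). The corepressor gene TLE4 had 1 and 0 counts in KO libraries, against 12 and 25 in WT libraries, and SNAI2, a regulator of cell migration, had 4 and 6 in KO libraries, against 24 and 16 in WT libraries.

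GATA3, a target of Notch in T cells, had 54 and 43 counts in KO libraries, against 6 and 29 in WT libraries, a ratio of 2.84 (1.91 to 4.3), with the WT libraries far apart. NEUROG2, a proneural factor that HES proteins repress, had 16 and 0 counts in KO libraries, against 38 and 37 in WT libraries, with the KO libraries far apart. NEUROD1 of the same list differed in the opposite direction, with 13 and 12 counts in KO libraries, against 4 in each WT library. Its ratio was 3.20 (1.40 to 8.21). In the authors' deposited table the adjusted p was 0.491 for NEUROG2 and 0.252 for NEUROD1. The endothelial ligand gene DLL4 had 21 and 16 counts in KO libraries, against 10 and 16 in WT libraries, and its ratio of 1.46 had an interval that included 1 (0.859 to 2.51). DLK1, HES5, PTCRA, IL2RA and NEUROG1 had 0 counts in every library. These low genes were picked after their counts were seen.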
